A study of Mus musculus with 3 samples.

Results

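Brain endothelial cells line the blood vessels of the nucleus accumbens, and 429 of the 10291 cells kept from 3 libraries fell into this class. They were selected on measured values: at least 3 UMIs (unique molecular tags, each counting 1 RNA molecule) summed over Cldn5, Flt1, Ly6c1 and Slco1a4, with at least 2 of the 4 genes detected. At most 1 UMI of the mural genes Rgs5 and Vtn and at most 1 of the neuronal genes Snap25 and Syt1 was allowed, and none of Mog or Aqp4. The 3 libraries form 1 group. All came from Thy1::ChR2 mice, which carry channelrhodopsin under the Thy1 promoter, a promoter active in neurons. The nucleus accumbens was labelled with FLiCRE during light stimulation and dissected from a 400 um coronal section. FLiCRE is a molecular recorder that turns calcium and light arriving together into transcription of a reporter. No unstimulated group is part of the data analysed here, so cell classes of the same 3 libraries were set against each other.

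Endothelial cells of the brain differ from those of most organs. Tight junctions seal the gaps between them, vesicle traffic across them is low, and dedicated transporters carry glucose, amino acids, lactate, lipids and thyroid hormone from blood to brain while efflux pumps return drugs to the blood. Wnt and beta-catenin signalling from neighbouring cells sets up and maintains this barrier, and mural cells (pericytes and smooth muscle) share a basement membrane with the endothelium. Along the vessel, endothelial cells change gradually from arterial to capillary to venous.

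The libraries, numbered by the suffix of their cell barcodes, held 172, 180 and 77 endothelial cells, with 204078, 310804 and 219717 UMIs in all. The cells made up 7.32% of kept cells in library 1 (95% exact Clopper-Pearson interval 6.30 to 8.45), 2.96% in library 2 (2.55 to 3.42) and 4.14% in library 3 (3.28 to 5.14). These intervals do not overlap between library 1 and the other two, and the mean was 4.81% ± 2.25 (SD, n = 3). Over non-neuronal cells alone the share was closer between libraries, at 8.96% ± 1.32. Intervals cover counting error only. The median endothelial cell had 848.5, 1247.5 and 2143 UMIs, against 939.5, 1276 and 2596.5 in the other non-neuronal cells. Levels are given as CPM, the UMIs of a gene per 1000000 UMIs of the class in that library. Neuron-gated cells held the striatal projection neuron genes Penk (2643 ± 321 CPM), Ppp1r1b (1482 ± 546) and Tac1 (1026 ± 344, SD, n = 3). Nothing in the labels says that the libraries came from separate animals, so p-values measure how class differences vary over these libraries. Libraries shared 13, 7 and 22 barcode sequences in pairs, and none was shared among the endothelial cells.

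The class carried the genes that define endothelium. The median cell had 16 UMIs of the 4 selecting genes. All 4 were detected in 292 cells, 3 in 101 and 2 in 36. Of 20 endothelial identity genes that took no part in the selection, 410 of the 429 cells (95.6%) had at least 3, against 1.66% of other non-neuronal cells. Only 2 cells had none. The edge of the selection was sparsely filled: 7 cells had a sum of 3 and 9 excluded cells had a sum of 2. Of those, 85.7% inside and 55.6% outside had an identity UMI, at a median of 578 and 2019 UMIs per cell. A further 106 cells met the 4-gene limit but failed an exclusion gene. Markers of other cell types were present at different levels. The 14 mural markers summed to 45.5 to 64.3 CPM with 3 of them at 0 UMIs, but the selection itself limits Rgs5 and Vtn. Oligodendrocyte markers, of which Mog was barred by the selection, summed to 1818 to 2651 CPM (21671 to 40972 in the other non-neuronal cells) and fibroblast markers to 874 to 1509 (3580 to 6034). Neuronal markers reached 2085 CPM in library 2 and 278 and 421 in the others (764 to 2410). The microglial markers summed to 123 to 2332 CPM, against 3871 to 9733 in the other non-neuronal cells, with library 1 highest and library 3 lowest in both. Their part in the results was not tested. Red blood cell RNA was nearly all in a single cell of library 2, which held 886 of the 902 globin and Alas2 UMIs.

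To show the sequence in front of genes that the class shares, the 250 bases before each start site were read from the RefSeq promoter table (GRCm38.p6, the same assembly as the submitters' mm10). Words of 3 transcription factor families were searched on both strands: CAGGAAG (ETS family, to which Erg and Fli1 belong), AACAAT (SOX) and AGATAA (the family of Gata2). The table held 12 of the 20 identity genes, and 6 of the 12 (50%) had CAGGAAG before at least 1 start, against 11.9% of the tested genes in the table and 12.1% of all 27025 genes. AACAAT was before 3 of the 12 and AGATAA before 1. The windows printed here overlap no annotated exon in GENCODE vM21 and are given 5′ to 3′ on the gene's strand, with CAGGAAG or its reverse complement in capitals. Grrp1 was among the 12 genes with the largest difference, and the only one of them with the word in a window. Gata2, Ocln, Paqr5, Sema3c and Tie1, the others of the 12 with windows, lack it. Adgrf5 and Erg are identity genes, and Ocln is given for contrast. The printed windows lie at chr4:134254107-134254356 (Grrp1, minus strand), chr17:43360181-43360430 (Adgrf5, plus), chr16:95459349-95459598 (Erg, minus) and chr13:100552719-100552968 (Ocln, minus).
Grrp1: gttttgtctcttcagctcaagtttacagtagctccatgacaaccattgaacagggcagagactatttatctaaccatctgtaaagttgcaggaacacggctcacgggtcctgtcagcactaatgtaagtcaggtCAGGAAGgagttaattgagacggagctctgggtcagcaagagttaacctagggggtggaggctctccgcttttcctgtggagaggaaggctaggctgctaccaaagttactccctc
Adgrf5: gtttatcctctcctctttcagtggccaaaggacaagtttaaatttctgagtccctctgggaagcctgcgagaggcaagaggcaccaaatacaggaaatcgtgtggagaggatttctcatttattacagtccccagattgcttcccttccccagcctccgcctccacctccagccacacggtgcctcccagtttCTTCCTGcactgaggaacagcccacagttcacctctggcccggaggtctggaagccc
Erg: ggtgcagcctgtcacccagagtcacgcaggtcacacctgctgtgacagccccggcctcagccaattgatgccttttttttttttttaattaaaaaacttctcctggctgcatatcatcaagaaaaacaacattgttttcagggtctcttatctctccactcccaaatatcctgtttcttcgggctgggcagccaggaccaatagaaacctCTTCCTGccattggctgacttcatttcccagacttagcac
Ocln: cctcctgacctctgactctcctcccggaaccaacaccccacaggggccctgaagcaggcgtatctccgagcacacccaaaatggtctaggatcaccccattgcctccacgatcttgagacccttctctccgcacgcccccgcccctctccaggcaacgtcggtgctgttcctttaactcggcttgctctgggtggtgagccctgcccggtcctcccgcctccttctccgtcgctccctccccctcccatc
The word began 116 bases before the Grrp1 start, 57 before this start of Adgrf5 and 40 before this start of Erg. The other Adgrf5 window and the other 2 Erg windows lack it. Erg is itself an ETS factor. Among the 189 genes that were higher by at least 16-fold in the comparison that follows, 128 had a window. Of these, 21.9% had CAGGAAG, 10.9% AACAAT and 14.1% AGATAA, against 11.9%, 6.67% and 6.61% of the tested genes. Over all 27025 genes the shares were 12.1%, 10.9% and 11.4%, so that of AACAAT was about the same as there. A match describes letters, not binding, and the shares were not tested.

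The first comparison set the endothelial cells against 4157 other non-neuronal cells (at most 1 UMI of Snap25, Syt1 and Snhg11). It asked which genes beyond the 4 selecting ones mark brain endothelium in these libraries. UMIs of each class were added up within a library. The sums were tested with edgeR (quasi-likelihood) with library as a term, and genes passed at a Benjamini-Hochberg adjusted p of 0.05. Of 9646 genes tested, 3341 (34.6%) passed, 1464 higher (15.2%) and 1877 lower (19.5%) in endothelial cells, with a median log2 fold change of -0.10 over all genes. Among those higher, 577 were at least 4-fold and 189 at least 16-fold higher. With any 1 library left out, 1576 to 1621 genes passed. The 11 genes used in the selection or in defining the comparator were left out of the test.

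Mmrn2, an extracellular matrix protein of endothelium with the largest positive difference (chr14:34375465-34404287, plus strand, GRCm38), had 157, 216 and 150 CPM in endothelial cells of libraries 1 to 3 and 1.14, 0.322 and 1.57 in other cells, a log2 fold change of 7.38 ± 0.39 (SE, edgeR adjusted p = 1.4e-07). Every endothelial value lay far above every other value for this gene. Gata2, a transcription factor of blood and endothelial lineages, followed with 98.0, 125 and 173 against 0.568, 0.645 and 1.57 CPM (log2 fold change 7.003). Sox18 (6.37) and Sox17 (6.25), paired SOX factors of vascular development, and Foxq1 (6.19), a Wnt-responsive forkhead factor, were close behind. Podxl, a sialomucin of the luminal face, reached 6.22 and Tie1, an orphan receptor of the angiopoietin system, 6.14. Ocln (occludin), a membrane protein of tight junctions, had 225, 225 and 168 CPM against 1.70, 3.87 and 2.36 (6.14). Sema3c, a secreted guidance cue, also reached 6.14, Paqr5, a membrane progestin receptor, 6.21, Grrp1 6.26 and Gm694 6.49. The 12 genes were chosen in part for the same direction in every library, so their separation in each library is no added support. Of the 3341 genes that passed, 3320 moved the same way in all 3 libraries.

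**Figure D1:**
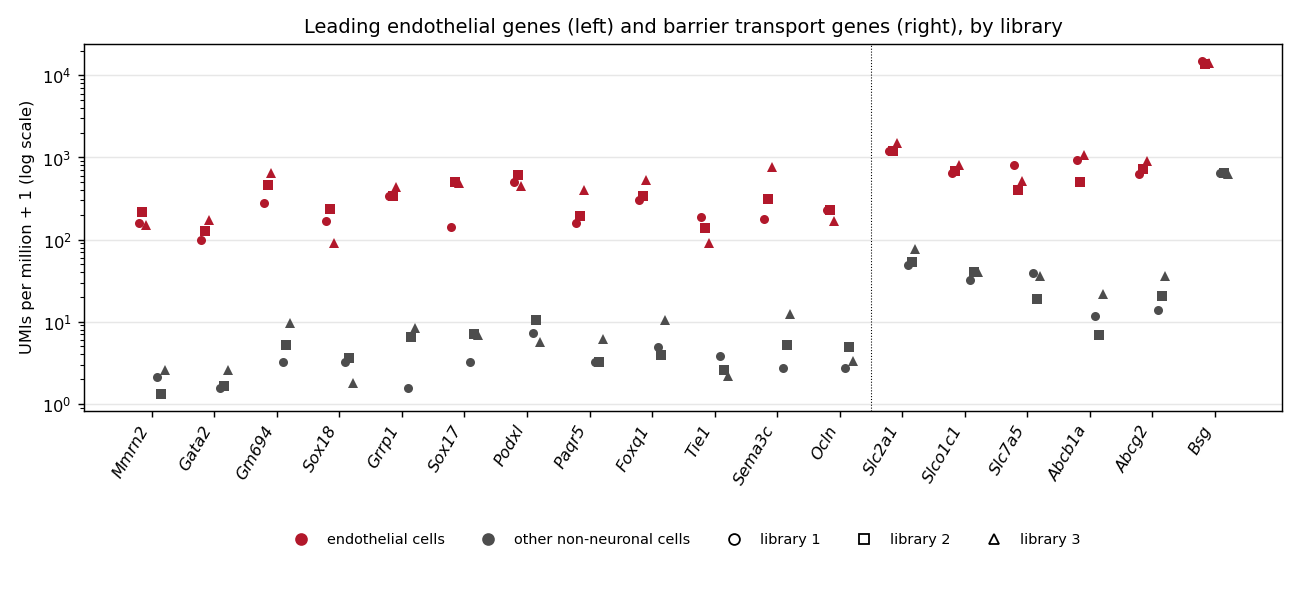
CPM plus 1 (log axis) in endothelial cells (red) and other non-neuronal cells (grey), 1 marker shape per library, for the 12 leading genes (left of the dotted line) and 6 transport genes (right). In each gene the 3 endothelial points lie above the 3 others, also for Bsg, which is between 13745 and 15112 in endothelial cells and between 636 and 653 elsewhere.

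At the other end were genes of astrocytes, oligodendrocytes and mural cells. F3, tissue factor, which starts blood clotting and is abundant in astrocytes, had 1 UMI in all endothelial cells (0, 3.22 and 0 CPM) and 120, 196 and 151 CPM elsewhere. The ratio of other to endothelial cells was 119, with an exact counting interval of 21.4 to 4724. Bcan, a brain proteoglycan, Pex5l and Higd1b, a pericyte gene, had 2 UMIs each, with ratios of 79.6 (22.008 to 658), 61.6 (17.0 to 509) and 50.2 (13.9 to 415). Ntsr2, an astrocyte neurotensin receptor, had 4 UMIs and a log2 fold change of -5.31 ± 0.42. These absences describe the classes the endothelial cells were set against.

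All 20 endothelial identity genes rose, with a median log2 fold change of 5.64. Ly6a, a GPI-anchored surface protein of endothelium and stem cells, had 2381, 4482 and 5043 CPM against 49.998, 120 and 125 (5.33 ± 0.15, edgeR adjusted p = 7.9e-09). Egfl7, a secreted vascular factor, had 1156, 1734 and 1434 against 21.0, 33.5 and 29.5 (5.65). The lowest of the 20, Eng, a TGF-beta co-receptor, still reached 4.44 ± 0.22. Lists were tested where their genes passed a count filter, so listed genes that no class expressed well are not in these counts.

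Junction genes rose in 12 of 14 tested, with a median of 2.75. Cdh5, the adherens junction cadherin of endothelium, had 338, 380 and 387 CPM against 7.39, 8.70 and 5.50 (5.63 ± 0.24). Pecam1 (5.75) and Esam (4.59), adhesion molecules of endothelial contacts, and Lsr (5.89), which recruits proteins to tricellular junctions, had no overlap between classes. Tjp1, a scaffold shared by many epithelia and endothelia, rose less (578, 357 and 473 against 47.7, 59.0 and 74.2, log2 fold change 2.91). The scaffold Mpp5 (-0.80, edgeR adjusted p = 0.080) was among those that did not pass.

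Genes of the solute carrier list, which includes Slc9a3r2 although it is not a transporter, rose in 20 of 23 tested, with a median of 3.58. Slc2a1 (GLUT1, chr4:119108711-119137983, plus strand), the glucose transporter of the barrier, had 1205, 1197 and 1493 CPM against 47.7, 52.2 and 75.0 (4.46 ± 0.16, edgeR adjusted p = 3.1e-08). Slco1c1, a carrier of thyroxine, had 652, 685 and 806 against 31.2, 39.7 and 39.7 (4.24). Slc7a5, the large neutral amino acid transporter, had 813, 405 and 523 against 38.1, 17.7 and 35.4 (4.23), and its partner chain Slc3a2 rose by less (1.37 ± 0.17). The 3 carriers were high in every library and nowhere overlapped with the other cells.

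Further carriers covered other substrates. Slc6a6, the taurine transporter, reached 2.98, and Slc16a1 (MCT1), which moves lactate and ketones, 2.48. Mfsd2a, which carries lysophosphatidylcholine lipids and restrains transcytosis, had 98.0, 99.7 and 200 CPM against 13.6, 19.99 and 27.5 (2.63 ± 0.25). Slc19a3, a thiamine transporter, had 34 UMIs against 5 in the far larger comparator (5.90 ± 0.49). Slc1a4 fell, with 3 UMIs in endothelial cells and a ratio of 20.6 (7.03 to 100) in favour of other cells. Slc13a3, with 1 UMI, fell too, but this call ended without any 1 library. Both were highest in astrocytes. Slc38a3 did not pass (0.40, edgeR adjusted p = 0.38).

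Of 8 tested genes on the efflux pump list, which includes the channel subunit Abcc9, 3 rose and 4 fell (median -0.68). The median was 1.42 in cells of at least 1000 UMIs, where Abcc9 was not tested, and 1.58 in thinned cells, where fewer genes were tested in all. Abcb1a (P-glycoprotein, chr5:8660077-8748575, plus strand), which expels many drugs, had 931, 508 and 1070 CPM against 10.8, 5.80 and 20.8 (6.08 ± 0.23). Abcg2, the breast cancer resistance protein, had 627, 717 and 910 against 13.1, 19.7 and 34.6 (5.08), and Abcc4 had 132, 122 and 63.7 against 4.55, 6.13 and 5.89 (4.16). These 3 rose. Abcc9, a potassium channel subunit of pericytes, had 0 UMIs in endothelial cells and was at least 8.26-fold lower, with the 3-count floor taken over the group, although this call ended without library 2. Abca2 fell by 2.17 on the log2 scale. Abcc5 fell by 0.93, but not without any 1 library, in DESeq2 or without a scaling factor. Abca1, a cholesterol exporter, fell by 1.12 on the log2 scale, but not without library 1 or without library 3. The remaining gene, Abcb1b, the second P-glycoprotein gene of the mouse, had 5 UMIs and did not pass (-0.42, edgeR adjusted p = 0.715). Abcb1a and Abcb1b are near copies, and how reads shared between them were counted is not given in the sources used here.

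Receptors and caveolar genes rose in 13 of 17 tested (median 2.24). Bsg (basigin, chr10:79704491-79711969, plus strand), a chaperone of monocarboxylate transporters, had 15112, 13745 and 13950 CPM in endothelial cells and 651, 653 and 636 in other cells (4.43 ± 0.12, edgeR adjusted p = 7.9e-09). Its spread over libraries was small in both classes. Igf1r (3.84), the IGF1 receptor, Fcgrt (3.23), the neonatal Fc receptor, and Insr (2.36), the insulin receptor, rose. Tfrc, the transferrin receptor that brings iron across the barrier, had 73.5, 113 and 146 CPM against 14.8, 21.6 and 32.6 (2.24). Cav1, the coat protein of caveolae, had 260, 331 and 182 against 7.39, 15.2 and 18.9 (4.17). Lrp1, a large endocytic receptor, fell by 3.89 on the log2 scale, and Plvap, the diaphragm protein of fenestrated vessels, fell by 2.26 with 6 UMIs in all endothelial cells, a call that ended without library 1 and without library 3. Prkcdbp was among those that did not pass. Without library 2, 8 of 16 tested rose.

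Signalling genes moved mostly one way. Of 24 tested genes of the VEGF, angiopoietin, Notch and BMP systems, 20 rose and 0 fell (median 2.96). At the receptor level, Kdr (VEGF receptor 2) had 206, 235 and 287 CPM against 4.55, 6.77 and 5.11 (5.39), and Tek, the angiopoietin receptor, 162, 315 and 269 against 1.14, 7.41 and 4.71 (5.73). Among targets, Id1, a BMP-responsive inhibitor of helix-loop-helix factors, had 1014, 1007 and 1684 against 27.8, 41.6 and 38.1 (5.04), and Id3 reached 2.76. Both receptors and both targets stood above the other cells in every library. Smad7, Notch1, Hey1 and Efnb2 did not pass.

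All 17 tested genes of Wnt and beta-catenin signalling rose (median 2.83). Lef1, the nuclear partner of beta-catenin, had 216, 222 and 350 CPM against 3.98, 7.74 and 8.25 (5.21). Foxf2 (4.29), a transcription factor of brain vessels, and Notum (4.80), a secreted Wnt inhibitor, rose with it. Nkd1, a feedback inhibitor of the pathway, varied most over libraries, with 88.2, 158 and 419 CPM (2.21 ± 0.32). Ctnnb1, beta-catenin itself, rose by 1.56. The smallest change was in Tspan12, a Norrin co-receptor (0.85 ± 0.26, edgeR adjusted p = 0.028), and its call ended in several alternatives, DESeq2 included. With any 1 library left out, 12 or 13 of 17 rose.

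Of 24 tested transcription factors of endothelium, 22 rose (median 3.61), among them the ETS members Erg (6.03), Fli1 (3.68) and Ets1 (3.61). Klf2, induced by blood flow, had 779, 2210 and 2794 CPM against 49.998, 80.9 and 64.0 (4.73 ± 0.25). Its level in library 1 was the lowest of the 3, as was that of Klf4 (132, 367 and 401, log2 fold change 4.52). Epas1 (HIF-2 alpha), an oxygen-responsive factor, reached 3.04 and Mecom 5.96. Nr2f2, a venous factor also present in mural cells, had 73.5, 35.4 and 13.7 against 20.5, 27.1 and 38.9 and did not pass (0.44, edgeR adjusted p = 0.52), nor did Etv6.

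Genes of haemostasis and vascular tone rose in 10 of 15 tested (median 2.75). Vwf, the platelet-binding protein stored in endothelium, had 740, 547 and 432 CPM against 6.82, 6.77 and 9.82 (6.10 ± 0.27). Edn1, the vasoconstrictor endothelin 1, reached 5.82, Thbd, the anticoagulant receptor for thrombin, 5.10, and Nos3, the endothelial nitric oxide synthase, 4.05. Ptgs1 fell, but not without any 1 library or in DESeq2. Ednrb, an endothelin receptor of glia, had 1 UMI in endothelial cells and fell, with a ratio of 66.0 (11.8 to 2612) in favour of other cells. Of 13 leukocyte adhesion genes tested, 7 rose and 2 (Jam3 and Ccl2) fell. Icam2, a constitutive leukocyte ligand, reached 4.82, the chemokine Cxcl12 4.52 and Vcam1 1.23, the last not called without library 1 or library 2. Icam1, which inflammation induces, did not pass. Of 18 basement membrane and matrix receptor genes, 14 rose (median 1.91), with Col4a1 at 2.64, Itga6, a laminin receptor, at 2.67 and Spock2 at 4.59.

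**Figure D2:**
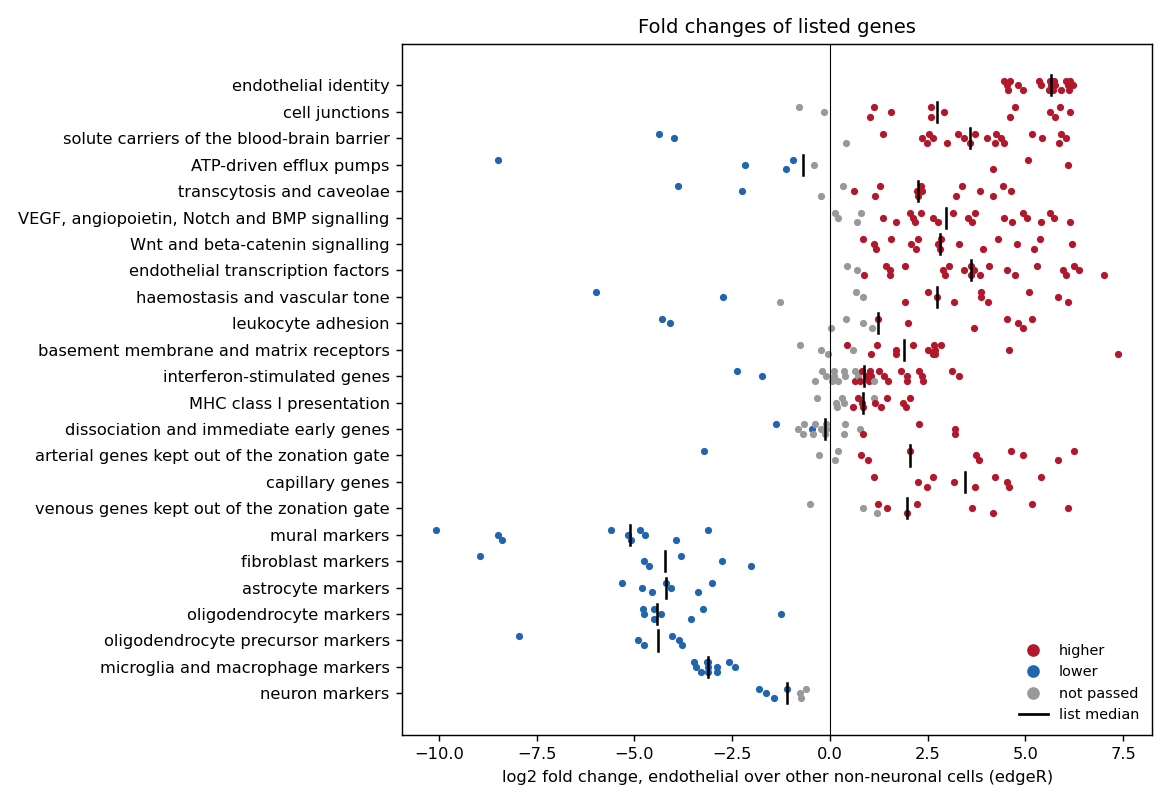
Log2 fold change of each tested gene (dots) between endothelial and other non-neuronal cells, by gene list, coloured by whether it passed the edgeR test as higher or lower or did not pass, with list medians as bars. Identity genes lie between 4.44 and 6.22, interferon-stimulated genes near a median of 0.87, and mural markers, some without a single endothelial UMI so that their fitted value depends on the prior count, reach -10.06 (Tagln).

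Interferons induce antiviral and antigen-presenting genes in most cell types, which form the interferon-stimulated list. Of 32 tested, 18 rose and 2 fell, with a median log2 fold change of 0.87 against -0.10 over all genes. Ly6e, a GPI-anchored protein that blocks virus entry, had 2871, 2474 and 3322 CPM against 314, 359 and 290 (3.13 ± 0.16, edgeR adjusted p = 1.6e-07). Ifitm3, a membrane protein that blocks virus fusion, had 2700, 3732 and 4661 against 453, 880 and 791 (2.37). Both were clear of the other cells in every library. Irf7, the factor that amplifies interferon production, had 186, 441 and 874 against 43.2, 138 and 187 (1.96). Its classes overlapped, with library 1 lowest in both. Isg15, a ubiquitin-like modifier, had 314, 592 and 583 against 101, 285 and 191 (1.39). Ifit3 did not pass (0.19, edgeR adjusted p = 0.50). The chemokine Cxcl10 fell by 2.36 on the log2 scale and Ifi27l2a by 1.72, and both calls ended without library 2. With any 1 library left out 10 to 12 genes rose, and without the library block 10.

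Summed over the list, endothelial cells held 12897 ± 2731 CPM (10280, 12680 and 15729), mural cells 10239 ± 3071, microglia and macrophages 7873 ± 1465, astrocytes 4581 ± 2005 and neurons 889 ± 516 (SD, n = 3). The mural and endothelial ranges overlapped. The endothelial values were above those of microglia, astrocytes and neurons, classes that were not tested against endothelium. For 7 core genes (Isg15, Ifit1, Ifit3, Irf7, Rsad2, Usp18 and Oasl2, chosen after the values were seen), 57.0%, 85.6% and 94.8% of endothelial cells in libraries 1 to 3 had at least 1 UMI. With cells thinned to 1000 UMIs (248 endothelial cells left) the mean was 77.6% ± 12.4, against 45.2% ± 22.8 in mural cells, 46.4% ± 16.8 in microglia and macrophages, 37.3% ± 14.0 in astrocytes, 27.7% ± 11.4 in oligodendrocytes and 10.1% ± 7.70 in neurons. Unthinned, it was 79.1% ± 19.7 in endothelial cells and 20.4% ± 15.9 in neurons, which were deeper. The thinned mural mean came from 143 cells, 82 in library 2 and 56 in library 3, with fewer than 10 in library 1. A few mural cells of library 1 thus weigh heavily on that mean and its SD.

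Of 16 tested genes of MHC class I presentation, 10 rose and 0 fell (median 0.84). H2-K1 had 1201, 1216 and 1379 CPM against 405, 492 and 464 (1.45 ± 0.14), and H2-D1 had 1284, 1860 and 2016 against 634, 805 and 801 (1.16). Both are classical heavy chains, and reads of the H2 family may be split between near-identical copies. B2m, their light chain, rose by 0.83 ± 0.15, but not without library 2 or library 3. With any 1 library left out, 4 to 6 genes rose. The summed list stood at 9174 ± 2792 in endothelial cells, between mural cells (2728 ± 635) and T cells (12946 ± 3907), and overlapped the range of microglia and macrophages (10053 to 12366).

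**Figure D3:**
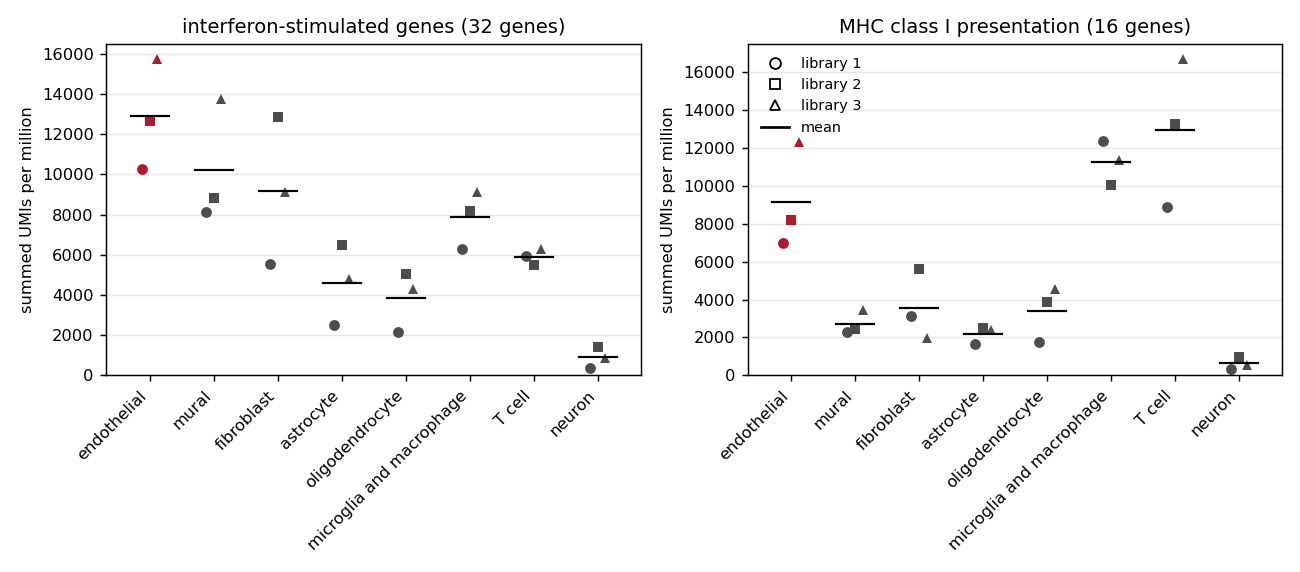
Summed CPM of the interferon-stimulated list (left) and of the MHC class I list (right) by cell class, 1 marker per library and a bar for the mean over 3 libraries. Endothelial cells (red) run from 10280 to 15729 on the left, overlapping mural cells and fibroblasts, and from 6992 to 12320 on the right, overlapping microglia and T cells. Neurons are lowest in both.

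Of 18 stress and immediate early genes, which tissue dissociation can raise, 4 rose and 2 fell, against 15.2% and 19.5% of all genes. Their median was -0.11, and 0.23 without library 1. Hspb1, a small heat shock protein, had 250, 708 and 856 CPM against 17.0, 81.6 and 107 (3.21), and Ier3 reached 3.20. Fos (-0.44, edgeR adjusted p = 0.24), Jun (0.36, edgeR adjusted p = 0.19) and Egr1 (-0.65, edgeR adjusted p = 0.19), the usual activity markers, did not pass. Jund and Hsp90aa1 fell, but the call of Jund ended without any 1 library and that of Hsp90aa1 without library 1 and without library 3. The list summed to between 1656 and 4328 CPM in endothelial cells and between 1954 and 3131 in other non-neuronal cells.

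The second comparison was with the other cell type of the vessel wall, 268 mural cells (41, 161 and 66) with at least 3 UMIs of Rgs5, Vtn, Acta2 and Myh11. It separates what is endothelial from what the vessel wall shares. Of 3421 genes tested, 1138 (33.3%) passed in edgeR, 614 higher (17.9%) and 524 lower (15.3%) in endothelial cells. The count was 655 without library 2, 430 without library 3 and 683 with DESeq2. Pglyrp1, a peptidoglycan-binding protein (chr7:18871331-18890459, plus strand), had 1392, 846 and 1461 CPM in endothelial cells and 0 UMIs in mural cells, at least 134-fold higher. Scgb3a1, a small secretoglobin, was at least 78.5-fold higher, and Adgrl4, an adhesion G protein-coupled receptor of vessels, at least 77.2-fold. Cdh5 was at least 42.1-fold and Sox17 at least 45.3-fold higher, likewise with 0 mural UMIs. Gm694 (at least 52.9-fold), Nebl (42.1) and Cyyr1 (39.5) completed the 8 leading genes. These bounds set the 3-count floor over all mural cells.

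In the opposite direction, Tagln, a smooth muscle actin-binding protein, had 1012, 2205 and 1740 CPM in mural cells and 0 UMIs in endothelial cells, at least 470-fold lower. The proteoglycan Aspn (at least 182-fold), Pln (157), a regulator of the calcium pump, Abcc9 (134) and the nucleotide receptor P2ry14 (129) were also at 0 endothelial UMIs. Higd1b had 2 endothelial UMIs against 832, a ratio of 896 (247 to 7411). Every leading gene of either side, chosen by fold change, was at or near 0 in the other cell type. Endothelial cells were selected with at most 1 Rgs5 and Vtn UMI, and mural cells with at most 1 UMI of the selecting genes, so cells carrying both sets are missing from both sides.

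**Figure D4:**
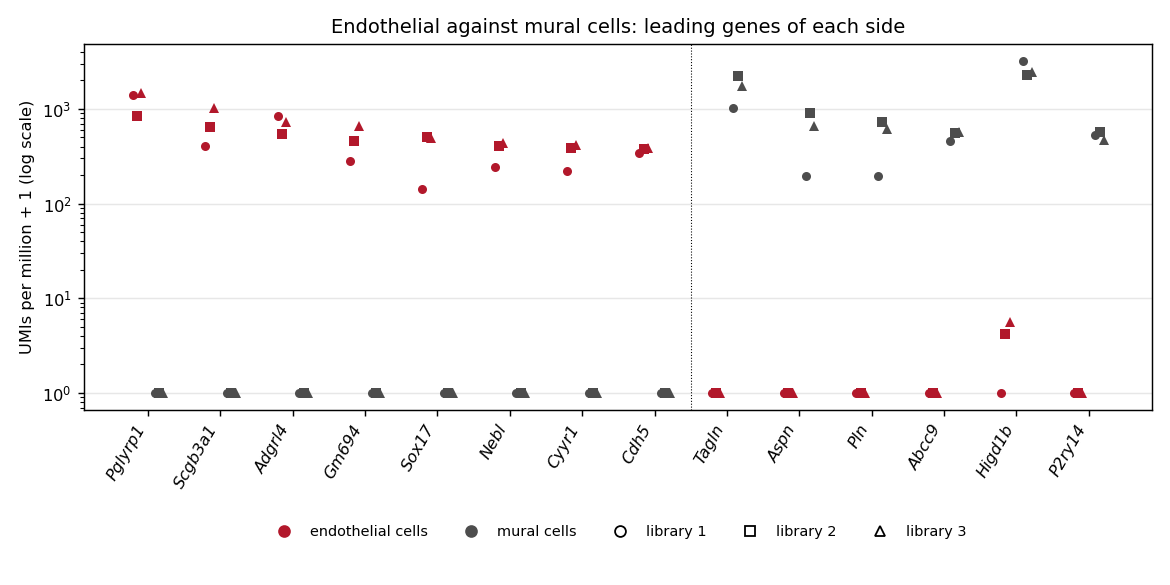
CPM plus 1 (log axis) of the 8 genes most above and the 6 most below mural cells, in endothelial (red) and mural cells (grey), 1 marker shape per library. All 8 genes on the left are at 0 in mural cells, and on the right only Higd1b has endothelial UMIs, 3.22 CPM in library 2 and 4.55 in library 3.

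Against mural cells, all 20 identity genes and 18 of 19 tested genes of the solute carrier list rose. The mural sums held only 30628, 180526 and 129917 UMIs. Of the 25 listed carriers, 6 missed the count filter, among them Slc1a4 and Slc13a3, which fell in the first comparison. Endothelial cells alone can meet that filter, so these counts lean towards genes high there. Slc2a1 had 32.6, 16.6 and 15.4 CPM in mural cells (log2 fold change 6.10 ± 0.31) and Bsg 326, 537 and 385 (4.97 ± 0.18). Abcb1a had 583 endothelial UMIs and 1 mural UMI, a ratio of 271 (48.4 to 10710). The exception was Slc22a8, an organic anion transporter, with 142, 138 and 269 against 131, 83.1 and 192 (0.48, edgeR adjusted p = 0.23). Without library 3, 15 identity genes and 11 carriers rose. Slc22a8 had differed from all other non-neuronal cells (4.01), but its values overlapped with those of mural cells.

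The basement membrane list went the other way, with 3 higher, 9 lower and 5 not passed of 17 (median -0.92). The laminin gene Lamc1 had 73.5, 41.8 and 31.9 CPM in endothelial cells and 163, 188 and 292 in mural cells (-2.30, not called without library 2 or 3), Nid1, which links laminin to collagen IV, reached -2.43 and Lama4 -2.02. Endothelial values of these 3 lay below mural ones in every library. Col4a1 (-0.60, edgeR adjusted p = 0.067) and Col4a2 (-0.55, edgeR adjusted p = 0.15) did not pass. Itga6, Spock2 and Mmrn2 were the 3 that rose. Itga6 had 194 UMIs in endothelial and 1 in mural cells, a ratio of 90.1 (16.0 to 3576). Without library 2, 5 genes fell, and without library 3, 4.

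Of 13 Wnt genes, 6 rose and 7 did not pass. Lef1 (3.63), Foxf2 (1.07) and Ctnnb1 (1.54) rose, and Notum was at least 7.58-fold higher with 0 mural UMIs. Foxq1 had 2 mural UMIs against 285 (ratio 66.2, 18.1 to 549). The calls of Foxf2 and Notum ended without library 2 and without library 3, and that of Foxf2 in DESeq2. Without library 3, 3 rose. Klf2 had 0, 138 and 77.0 CPM in mural cells against 779, 2210 and 2794 (4.47).

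Of 13 MHC class I genes 11 rose against mural cells, and of 29 interferon-stimulated genes 13 rose and 3 fell. Over all genes tested, 17.9% were higher and 15.3% lower. H2-K1 had 131, 210 and 223 CPM in mural cells (2.60 ± 0.21) and B2m 1077, 1047 and 2017 (1.59 ± 0.15). Ly6e rose by 4.03 and Irf7 by 0.96, while Isg15 (0.03, edgeR adjusted p = 0.94) and Ifitm3 (-0.13, edgeR adjusted p = 0.54) did not pass. Ifitm1 (-3.34), Ifitm2 (-0.48) and Cxcl10 (-1.87) were lower than in mural cells. The calls of Irf7 and Ifitm2 ended without library 2, without library 3 and in DESeq2, that of Ifitm2 also without library 1, that of Cxcl10 without library 3 and that of Ifitm1 with doublets removed. The interferon count fell to 4 without library 2, 2 without library 3 and 4 in DESeq2, and the MHC class I count to 4 without library 3 and 5 in DESeq2. In either direction, 655 of 3173 genes passed without library 2, 430 of 3617 without library 3 and 683 of 3421 in DESeq2. Whether the interferon counts differ from these shares was not tested.

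The third comparison was among the endothelial cells, along the vessel. Arterial-gated cells had at least 1 UMI of Gkn3, Sema3g, Bmx or Efnb2 and none of Slc38a5, Nr2f2, Ackr1 or Lcn2, and venous-gated cells the reverse. The limit of 1 UMI was chosen after a limit of 2 left a single library with 10 cells on both sides, which allows no test. This gave 22, 29 and 14 arterial and 37, 51 and 32 venous cells, with 232 of 429 in neither and 12 in both. Their median depths differed, with 849.5, 2107 and 1369.5 UMIs in arterial and 1673, 1553 and 2509.5 in venous cells, and the part of depth in the results was not tested. Of 1233 genes tested in edgeR, 74 (6%) passed, 29 higher (2.35%) and 45 lower (3.65%) in arterial cells. Without library 3 no gene passed at the adjusted threshold (194 at an unadjusted p under 0.05), without library 1 20 did, and DESeq2 gave 37. Every value along the vessel carries this limit.

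Tmem100, a BMP-induced membrane protein of arteries (chr11:90030348-90036508, plus strand), had 458, 581 and 152 CPM in arterial and 0, 0 and 17.7 in venous cells, 55 UMIs against 2 (ratio 64.6, 17.1 to 547). Alpl, alkaline phosphatase, had 204, 255 and 152 against 14.2, 0 and 0, a ratio of 63.5 (10.5 to 2598) from 27 UMIs and 1. Mgp, an inhibitor of calcification and BMP, had 662, 1359 and 1952 against 171, 132 and 17.7 (log2 fold change 3.71 ± 0.44, edgeR adjusted p = 8.6e-05). The sides did not overlap in these 3 genes, which were chosen in part for the same direction in every library. Cdk19 (2.50), Eps8l2 (2.87) and Oard1 (2.38) completed the 6 leading arterial genes. In the venous direction, Rnase4 had 2 UMIs against 54 (ratio 11.5 in favour of venous cells, 3.03 to 97.3). Tmsb10, an actin-binding peptide, had 611, 680 and 213 against 7812, 2815 and 2183 (-2.85 ± 0.26). Car4, a carbonic anhydrase of the capillary surface (-2.64), Apod (-2.55, also on the fibroblast marker list) and Serpinb9 (-2.40) followed.

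Known zonation genes that took no part in the gates were mostly on their side. Of 8 arterial genes, 5 rose: Mgp, Alpl, Crip1 (1.84), Tm4sf1 (1.51) and Sox17 (1.21). Hey1, a Notch target, had 153, 212 and 152 CPM against 0, 56.5 and 44.4 without passing (2.06, edgeR adjusted p = 0.071), nor did Edn1 or Clu pass. Of 5 venous genes, 3 were lower in arterial cells, among them Vwf (407, 283 and 274 against 1309, 1177 and 568, -1.80) and Tmsb10, while Vcam1 (-1.31, edgeR adjusted p = 0.075) and Tshz2 did not pass. Among 9 capillary genes, Cxcl12 rose (1.23), Car4 and Slc16a1 (-1.21) fell and 6 did not pass. The call of Sox17 ended without any 1 of the 3 libraries.

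**Figure D5:**
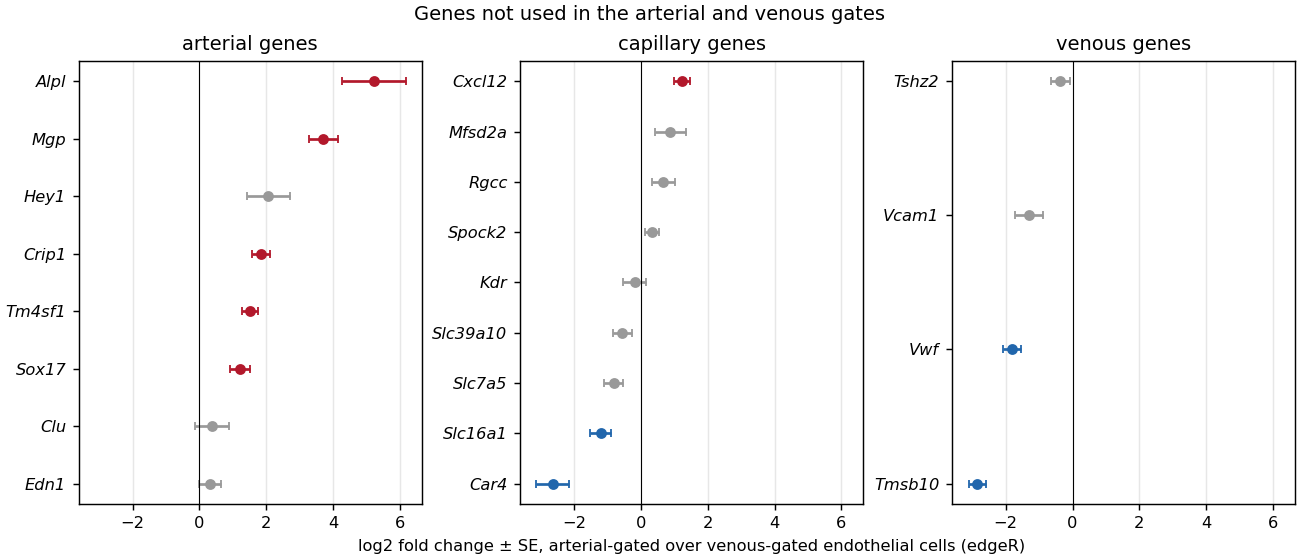
Log2 fold change with SE between arterial-gated and venous-gated endothelial cells (edgeR) for the arterial, capillary and venous genes reported here that were not used in the gates, coloured red where higher, blue where lower and grey where not passed. Arterial genes run from 0.31 (Edn1) to 5.22 (Alpl) and venous genes from -2.85 (Tmsb10) to -0.36 (Tshz2).

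Of the lists named for the barrier, 3 of 16 solute carriers passed, and 0 of 18 identity genes, 10 junction genes and 2 efflux pumps in edgeR, where 6% of all genes passed. Slc2a1 had 1324, 1020 and 1891 CPM in arterial and 1067, 1337 and 1544 in venous cells (-0.05 ± 0.19) and Bsg differed by -0.08 ± 0.15. A p that misses the threshold does not show equality, and the SE bounds what could be seen. On the carrier list Slc6a6 (1.53) and Slc9a3r2 (1.27), the latter not itself a transporter, rose and Slc16a1 fell. Epas1 rose (0.87). Of 21 interferon-stimulated genes tested, Iigp1, an interferon-inducible GTPase, fell (153, 127 and 122 against 370, 640 and 435, -2.07 ± 0.34) and 20 did not pass. Among further genes, Ier3 (-2.26) was lower in arterial cells and Btg2 (1.75) and Dusp1 (1.23) were higher.

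RNA of the labelling construct was rare in the class. The fluorophore mCherry, taken here as the reporter, had a UMI in 0 of 172, 16 of 180 and 1 of 77 endothelial cells, a mean of 3.40% ± 4.80 (SD, n = 3), with at most 2 UMIs in a cell. A count of 0 in library 1 allows a share of up to 1.74%. In library 2 the share was 8.89% (exact interval 5.17 to 14.0). Oligodendrocytes, another non-neuronal class, had 0.76%, 9.01% and 2.62% at median depths of 950, 1989 and 4067 UMIs. One oligodendrocyte of library 2 held 75 mCherry UMIs. The endothelial shares were not above those of oligodendrocytes in any library. Neurons had 7.27%, 19.97% and 11.2%. The protease feature TEV was in 0, 10 and 0 endothelial cells against 24.5%, 39.3% and 51.5% of neurons. In library 2 this was 5.56% of endothelial cells and 5.31% of oligodendrocytes, and 6.03% and 2.84% when thinned to 1000 UMIs, a difference that was not tested. The feature tTA was in 0, 4 and 1 endothelial cells. Thinned to 1000 UMIs, mCherry remained in 4 of 248 endothelial cells, all in library 2.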

How the data were processed

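The authors deposited 1 matrix of whole UMI counts for 28001 features and 11625 cells of 3 libraries, made with a 10x 3′ v2 kit per the labels, and with Cell Ranger 3.0 and the mm10 build per the submitters' processing notes. The deposited barcode and feature lists gave the cell and gene names. The filter on cells was 300 detected genes or more and 20% mitochondrial UMIs or fewer. The labels do not tie barcode suffixes to numbered samples, so the library number is only a name. The members and gene lists were chosen with earlier results of these data known.

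Deposited counts were added up by class within each library, and edgeR 4.0.16 tested the sums by quasi-likelihood (R 4.3.3, TMM scaling, filterByExpr, robust prior without legacy deviances, library as block, Benjamini-Hochberg threshold 0.05). The script was tested on simulated data. A library entered with at least 10 cells on both sides. Sums of 1 library are paired by construction. Named genes were drawn from those with the largest positive and negative log2 fold changes among genes that passed, moved the same way in all libraries and had a mean of 100 CPM or more in the higher class. In each list the 4 members with the highest endothelial level and the 1 with the lowest fold change could be named too. Other listed genes in the text were chosen after their values were seen. Cell classes are gates on up to 4 marker genes, not clusters. Doublets stayed in, and an alternative removed the highest Scrublet scores (scanpy 1.11.5). Alternatives were DESeq2 1.42.0, other scalings, filters, gates, depths and priors, and leaving out each library. Listed genes absent from the features numbered 4. Results of some genes are not reported here.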

Additional observations from a re-analysis of the deposited data

How the results depend on the processing

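Endothelial against other non-neuronal cells gave 1576 to 1621 genes with any 1 library left out and 1740 with cells thinned to 1000 UMIs, where 5999 genes were tested. Endothelial against mural cells gave 430 to 1271 genes with a library left out and 683 with DESeq2. Arterial-gated against venous-gated cells gave 0 to 56 with a library left out, 37 with DESeq2 and 30 without the filter on low counts. Without the replicate block, which pairs the sums of a library, the counts were 2685, 823 and 20. The cause of these shifts in the counts was not tested. In thinned cells, 2444 of the 3341 genes called in the first comparison were tested, and 1675 of them passed. Every gene called as reported kept its direction wherever an alternative tested it, except 1 gene each under thinning and under the looser selection. The share of endothelial cells ran from 3.55% to 5.73% and the share with mCherry from 0.649% to 5.09% with a library left out. No value of a called gene printed in the text changed sign. The median of the stress and immediate early list did (0.23 without library 1), as did that of the efflux list in deeper cells (1.42) and thinned cells (1.58). In the deeper cells Abcc9 was not tested, so the efflux median there is over a changed set of genes. The thinned fit covered 5999 genes in all, so its efflux median may also rest on fewer genes. In the arterial and venous test a gate of at least 2 UMIs, or cells of at least 1000 UMIs, left 1 library and gave no value. The 65 arterial and 120 venous cells limit that test.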
